A study of Mus musculus with 2 samples.

Results

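The 45 genes described here encode chaperones, the proteins that help other proteins fold, in the cytosol, the mitochondria and the endoplasmic reticulum (ER), with their co-chaperones and 2 heat shock transcription factors. They were chosen by name from a list of gene symbols arranged by compartment and protein family. Earlier results of these data were known when the list was made, so the shares set beside all genes below are descriptions. Of the 45 genes 43 had at least 1 probe set assigned to a single gene, 116 probe sets in all out of 34945 such probe sets for 18193 genes. The cytosolic HSP90 gene Hsp90ab1 and the heat shock factor gene Hsf1 were not analysed here. Both probe sets of Hsf2 lay below the intensity floor on both arrays, so 42 genes were measured, every one of them above the floor on both arrays. These were 25 genes of the cytosol, 5 of the mitochondria and 12 of the ER.

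The RNA came from whole lungs of C57BL/6 mice, aged 6 to 8 weeks when 500000 Lewis lung carcinoma (LLC) cells in 200 µL were injected into a tail vein, and taken on day 19. LLC is a carcinoma line of C57BL mice that seeds the lung. In the control group the cells had been transfected with vector, and in the other group they overexpressed TDAG8, a proton-sensing receptor encoded by Gpr65. Both groups therefore carried LLC cells, and neither was a tumour-free lung. RNA of 10 lungs was pooled for each group and read on 1 array, so no difference below has a replicate check, an error or a p-value, and each describes these 2 pools. The sources used here do not say which promoter drove TDAG8 or whether the transfected cells were 1 clone. In RNA of a whole lung, fewer cells of a type and less RNA per cell cannot be told apart.

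Chaperones bind unfolded stretches of proteins and release them in cycles that most of them drive with ATP. HSP70 proteins act with HSP40 partners, which deliver substrates and trigger ATP cleavage, and with HSP110 proteins, which exchange the nucleotide. HSP90 takes up late folding intermediates such as kinases and receptors, and the ring-shaped chaperonins TRiC in the cytosol and HSP60 in mitochondria enclose whole proteins. Heat shock factor induces some cytosolic and mitochondrial chaperone genes through heat shock elements in their promoters. Unfolded protein in the ER induces some ER chaperone genes through ER stress elements.

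Before the values, the promoter sequences are described by which of these 2 elements they hold. RefSeq promoter windows of build GRCm38.p6, from 250 bases before to 50 bases after each annotated start, were found for 37 of the 45 genes, 45 windows in all. Cct4, Hsp90aa1, Hsp90ab1, Hspa8, Hspa9, Hyou1, Cryab and Hsf1 had no window here and were not searched. A heat shock element was searched as 3 alternating units of GAA and TTC with 2 bases between units, and an ER stress element as CCAAT, then 9 bases, then CCACG, both on either strand. The 3-unit heat shock element was in the windows of Hsph1, Hspd1 and Hspe1, against 179 of 27025 genes with a window, or 0.662%. These were 1 of 21 cytosolic and 2 of 4 mitochondrial genes with a window. None of the 11 ER genes and none of the 7 TRiC genes with a window had it. The ER stress element was in 6 of the 11 ER genes with a window and in none of the 21 cytosolic or 4 mitochondrial ones, against 37 of the 27025 genes, or 0.137%. Such a match describes the letters and does not show that a factor binds. Only exact units within the window were searched, so a gene without a match is not shown to lack an element.

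Hspd1 and Hspe1 encode HSP60 and its lid HSP10 and lie on opposite strands of chromosome 1. They share 1 element, between the Hspe1 start and 1 of 2 annotated Hspd1 starts, 215 bases apart. The window of the other Hspd1 start, chr1:55088194-55088493, held no such element. In the shared element 4 units overlap as a run of 18 bases at chr1:55088059-55088076. It begins 89 bases before the Hspe1 start and 144 bases before the Hspd1 start whose window is chr1:55087883-55088182. The stretch of 150 bases before the Hspe1 start, chr1:55087998-55088147 on the plus strand, is shown because these genes had some of the highest ratios below. In Hsph1, an HSP110 gene on the minus strand of chromosome 5, the element lies after the annotated start, at 15 or 36 bases depending on which of 2 starts is used, and 26 bases at chr5:149636287-149636312 are shown. Capitals mark the heat shock elements.
Hspe1 promoter: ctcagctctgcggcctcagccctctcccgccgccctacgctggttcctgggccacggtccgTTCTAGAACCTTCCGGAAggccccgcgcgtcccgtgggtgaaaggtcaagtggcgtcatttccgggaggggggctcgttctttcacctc
Hsph1 element: aaatgctgcagaTTCTGGAAAGTTCt

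The ER stress elements are shown with 12 bases on each side. They mark 6 ER genes whose ratios below ranged from -0.55 to 0.62, with a median of 0.19. They lie at chr2:34772013-34772055 for the HSP70 gene Hspa5, chr12:17266479-17266521 for Pdia6 and chr14:118937815-118937857 for Dnajc3. The others lie at chr11:50325788-50325830 for Canx, chr8:84847063-84847105 for Calr, and chr10:86705626-86705668 and chr10:86705521-86705563 for Hsp90b1, which has 2. Hspa5, Pdia6 and Dnajc3 are on the plus strand and the others on the minus strand, and each sequence is written in the direction of its gene. In Calr and in the nearer one of Hsp90b1 the element reads on the opposite strand. Capitals mark the elements.
Hspa5: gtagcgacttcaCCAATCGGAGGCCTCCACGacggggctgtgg
Pdia6: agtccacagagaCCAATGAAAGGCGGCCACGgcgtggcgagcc
Dnajc3: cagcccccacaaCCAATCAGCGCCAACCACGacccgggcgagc
Canx: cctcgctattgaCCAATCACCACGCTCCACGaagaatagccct
Calr: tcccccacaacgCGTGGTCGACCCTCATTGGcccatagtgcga
Hsp90b1 far: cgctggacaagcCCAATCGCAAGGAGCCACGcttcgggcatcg
Hsp90b1 near: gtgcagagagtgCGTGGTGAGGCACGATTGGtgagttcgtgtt

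**Figure D1:**
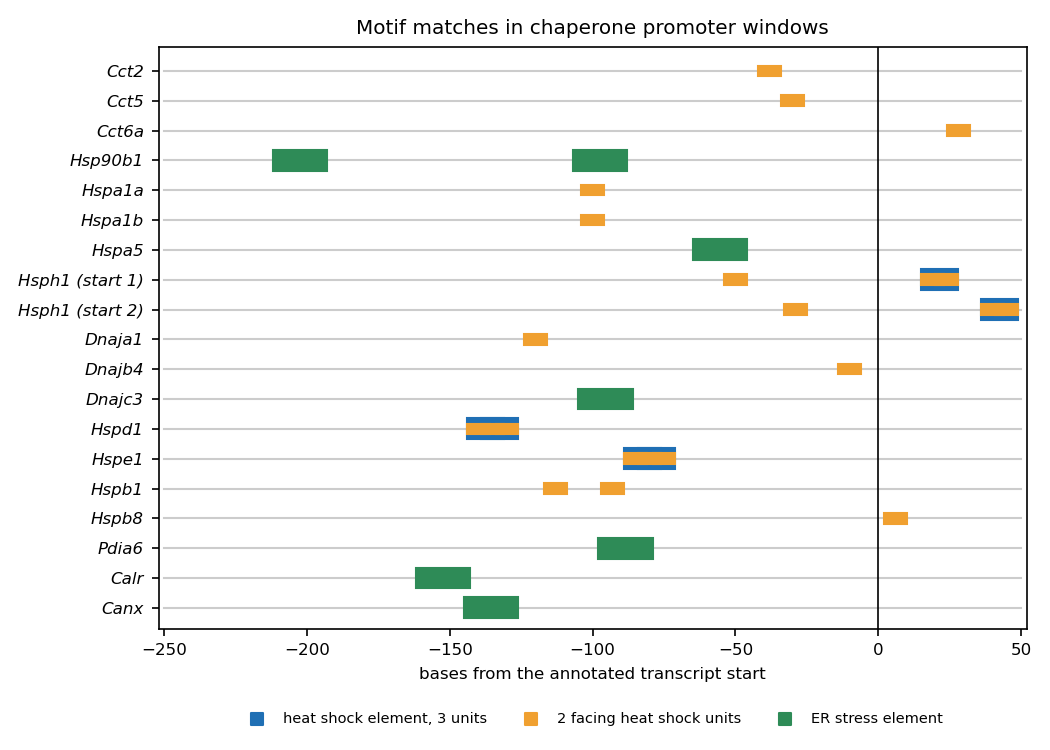
Positions of motif matches in the promoter windows of the chaperone genes that have any, in bases from the annotated transcript start (horizontal axis), 1 line for each window. Blue boxes mark heat shock elements of 3 units, orange boxes 2 facing units and green boxes ER stress elements, and of the 37 genes searched Hsph1, Hspd1 and Hspe1 show the 3-unit element.

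Looser matches were more frequent and set the genes less apart. The facing pair GAANNTTC was in the windows of 9 of the 37 genes, against 9.04% of all genes, and the facing pair TTCNNGAA in 6, against 9.60%. The first pair included the stress-induced HSP70 genes Hspa1a and Hspa1b, each with a match 104 bases before its start. Those windows are identical at 296 of 300 positions. The CCAAT box alone was in all 11 ER windows and in 11 of 21 cytosolic ones, against 41.1% of all genes, and overlaps the ER stress element. The E-box CACGTG, a site of Myc and related factors, was in the windows of Hsph1, Hspd1, Hsf2, Dnajb9 and Calr, against 8.09% of all genes.

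Each value below is an intensity as deposited on the vector control array and then on the TDAG8 array, on a linear scale with a trimmed mean of 100 on each array. Ratios are log2 of TDAG8 over vector control after centring, which moved them by 0.06, and a gene was counted as higher or lower at 1.5-fold or 2-fold. A gene's brightest probe set stands for it. Gpr65 itself was read at 32.3 and 73.9, a log2 ratio of 1.25, with the vector control value close to the floor of 26.3. Whether this RNA came from the LLC cells or from lung cells was not tested. Of the 42 chaperone genes 18 were at least 1.5-fold higher, against 14.4% of the 11949 genes measured, and 4 were past 2-fold, against 5.41%. None was 1.5-fold lower (12.1% of all genes) or 2-fold lower (1.19%). These small counts depended on the processing. The genes past 2-fold higher were 2 without centring, after quantile normalization or with only the probe sets less open to shared sequence, which measured 31 of the 42, and those 1.5-fold lower were 3 without centring and 2 after quantile normalization. Ratios were above 0 for 34 of 42 genes, against 49.9% of all genes, and below 0 for 8, against 50.1%. The median was 0.50, beside 0.00 for all genes. The lowest ratio was -0.55 and the highest 1.19. A further comparison, added after the values were seen, used the 5522 brighter genes, those with a mean log2 intensity of at least 7.31, which include 41 of the 42. Of these brighter genes 13.4% were 1.5-fold higher and 4.33% 2-fold higher, 10.3% were 1.5-fold lower and 0.742% 2-fold lower, and 52.4% were above 0 and 47.6% below.

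The compartments differed in their medians. The 25 cytosolic genes had a median log2 ratio of 0.64, with 13 at least 1.5-fold higher and 21 above 0. The 5 mitochondrial genes had a median of 0.91, with 3 at least 1.5-fold higher and 5 above 0. The 12 ER genes had a median of 0.13, with 2 at least 1.5-fold higher and 8 above 0. At 1.5-fold the shares were 52% for the cytosol, 60% for the mitochondria and 16.7% for the ER, against 14.4% of all genes. The ER share was thus close to that of all genes. Of all genes measured 49.9% were above 0. Summed over genes, intensity went from 23973.8 to 32934.2 for the cytosol, from 2883 to 5306 for the mitochondria and from 16189.4 to 16908.9 for the ER. The difference between compartments was not tested, as there was 1 array per group. Levels of other cell markers differed between the same 2 pools. All 16 measured proliferation markers of 18 listed were at least 1.5-fold higher, their summed intensity going from 3272 to 10655.7, with Tyms below the floor on both arrays and Ccnb1 not analysed here. Of 9 monocyte and macrophage markers 8 were above 0, 6 were past 1.5-fold and 5 past 2-fold, with a median of 1.07. Their sum went from 8793 to 9213, most of it Lyz2, the 1 marker below 0, from 6650 to 6002, with Msr1 below the floor on the vector control array. All 7 measured alveolar type 2 markers, all 8 endothelial and all 8 ciliated cell markers were below 0, with sums of 29834.5 and 21940.8, 6365 and 3551, and 2918 and 1583. The ciliated cell markers Dnah5 and Tekt2 lay below the floor on the TDAG8 array. All 8 endothelial and all 8 ciliated cell markers were at least 1.5-fold lower, against 12.1% of all genes, and 0 of the 7 alveolar type 2 markers. Every alveolar type 2 marker measured, such as Sftpc, was above the floor on both arrays, as the label lung requires. All 7 alveolar type 1 and all 5 club cell markers were also below 0, and 3 of 6 fibroblast markers were. The part of these cell markers in the chaperone values was not tested.

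**Figure D2:**
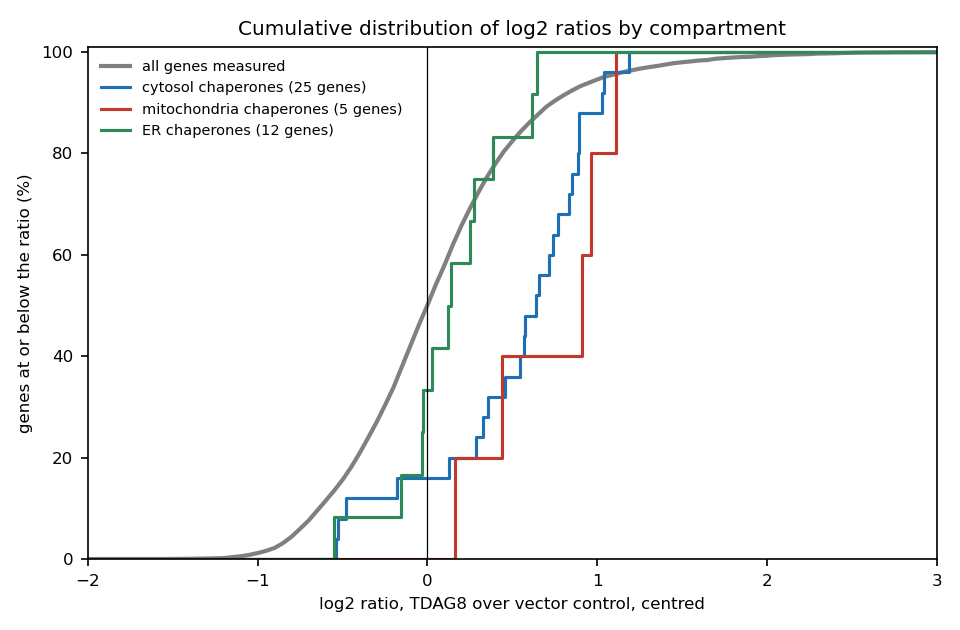
Share of genes (percent, vertical axis) at or below each log2 ratio of TDAG8 over vector control (horizontal axis) for the 11949 genes measured (grey) and for chaperone genes of the cytosol (blue), mitochondria (red) and ER (green). The cytosolic and mitochondrial curves lie to the right of the grey curve over most of their range, with medians of 0.64 and 0.91, and the ER curve lies nearer to it and crosses it above a ratio of 0, with a median of 0.13.

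TRiC, the cytosolic chaperonin that folds actin and tubulin, is a double ring built from 8 different subunits, each with its own gene. All 8 subunit genes had ratios above 0, against 49.9% of all genes, and 7 were at least 1.5-fold higher, against 14.4%. Cct3 had the highest ratio, going from 717 to 1417, or 2.06-fold. Cct8 went from 402 to 719, a ratio of 0.90. Cct5 went from 1013 to 1803 and Cct6a from 981 to 1742, both with a ratio of 0.89. Between these 3 subunits the ratios hardly differed. Tcp1, the subunit first described, went from 1065 to 1848, a ratio of 0.85. Cct2 went from 1244 to 1885 and Cct4 from 1187 to 1775, ratios of 0.66 and 0.64. Cct7 was the lowest of the 8, from 976 to 1398, and at 1.49-fold missed the limit. The median of the 8 genes was 0.87, and they spanned 0.46 on the log2 scale. With the mean over probe sets Cct3 at 0.51, Cct4 at 0.31 and Cct8 at 0.44 fell below 1.5-fold. Cct7, at 0.61, passed it there. That mean takes in probe sets below the floor, and the only other one of Cct8 lay below it on both arrays.

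The further probe sets bear on how even the TRiC genes were. There were 20 TRiC probe sets that both arrays read above the floor, 19 of them with ratios above 0. At 1.5-fold or more 16 were higher, against 13.2% of the 18817 such single-gene probe sets, and 5 were 2-fold higher, against 4.5%. None was 2-fold lower, against 1.05%. The exception was a dim probe set of Cct3 that went from 55.6 to 37.3, while the other 4 of that gene lay between 0.90 and 1.09. The other probe sets of Cct2, at 1.04 and 1.07, were higher than the one that stood for it. Those of Cct4 ranged from 0.19 to 0.81, the lowest values coming from its dimmest probe sets, and 1 more passed the floor on the vector control array alone. In Cct3 and Cct4 the probe sets of 1 gene spread more widely than the 8 subunits did.

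HSP90 proteins had smaller ratios. Hsp90aa1, the stress-induced cytosolic form, went from 2330 to 2863 by its brightest probe set, a ratio of 0.36. Its other probe sets above the floor were at 0.84, going from 1524 to 2613, and at 0.75, going from 942 to 1523. Hsp90aa1 thus passed 1.5-fold by 2 of its 3 bright probe sets and not by the brightest. Trap1, the mitochondrial HSP90, went from 280 to 364, a ratio of 0.44, and a second probe set was at 0.75. Hsp90b1, the ER form known as GRP94, went from 1633 to 1897, a ratio of 0.27, with its other probe set at 0.23. The co-chaperones Stip1 and Ahsa1, which act on cytosolic HSP90, had larger ratios than Hsp90aa1 by their brightest probe sets. Stip1, which hands clients from HSP70 to HSP90, went from 211 to 414, or 2.04-fold. Ahsa1, which speeds up the ATPase of HSP90, went from 555 to 875, a ratio of 0.72, although a dim second probe set was at -0.29 and the mean of both at 0.23.

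The HSP70 genes spread more widely than TRiC. Hspa9, the mitochondrial HSP70 called mortalin, went from 379 to 683, a ratio of 0.91, and its 4 probe sets above the floor lay between 0.38 and 0.91. Hspa8, the constitutive cytosolic form, went from 4353 to 6190, or 1.48-fold, and its 4 probe sets lay between 0.30 and 0.77. Hspa1a, a stress-induced form, went from 131 to 215, a ratio of 0.77. Hspa1b went from 407 to 537, a ratio of 0.46, with other probe sets at 0.43 and 0.67. These 2 genes are near-identical copies, so their probe sets may share signal and the values cannot be assigned to one of them with confidence. Hspa5, the ER form known as BiP, went from 3024 to 3449, a ratio of 0.25, and all 3 of its probe sets lay between 0.25 and 0.39. Hspa2, a form abundant in testis, went the other way, from 100.5 to 67.0, a ratio of -0.53 read by 1 probe set.

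Among the HSP110 exchange factors, Hsph1 (HSP105) had the highest ratio of all chaperone genes. It went from 492 to 1077, or 2.28-fold, and its other probe set, from 317 to 748, had a ratio of 1.30. Of 11044 genes that both arrays read above the floor 96.7% had a lower ratio than Hsph1. Hspa4 went from 454 to 776 by its brightest probe set, a ratio of 0.83, but 2 dimmer ones were at -0.40 and -0.12. For Hspa4l, the brightest probe set was at 0.29 and the other 4 lay between -0.30 and -0.05. No direction is therefore given for Hspa4l, and that of Hspa4 rests on 1 probe set of 3. Hyou1, the ER member, had -0.03 by 1 probe set and 0.32 by another.

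The HSP40 family, whose members select substrates for HSP70, was mixed, with a median of 0.14. Of its 8 genes 5 were above 0, against 49.9% of all genes. Dnajb1, the stress-induced cytosolic form, went from 398 to 638, or 1.67-fold, and its second probe set was at 0.85. Dnaja1, a partner of Hspa8, went from 1548 to 2174, a ratio of 0.55, with others at 0.11 and 0.42. Dnaja2 was at 0.13, with 4 probe sets from -0.29 to 0.35, and Dnajb4 was at -0.18. Dnaja3, the mitochondrial form, was at 0.16. In the ER, Dnajb11, a partner of Hspa5, went from 243 to 305, a ratio of 0.38, and Dnajb9 from 1072 to 924, a ratio of -0.16. Dnajc3, an ER protein known as p58IPK that also inhibits the stress kinase PERK, went from 800 to 525, a ratio of -0.55 and the lowest of all 42 genes. All 5 of its probe sets were below 0, from -0.55 to -0.11.

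HSP60 and HSP10, which form the mitochondrial folding chamber and its lid, both had ratios near 2-fold. Hspd1 went from 1169 to 2425, or 2.16-fold, and Hspe1 from 876 to 1642, or 1.95-fold, with its second probe set at 0.87. In the order of the 42 ratios Hsph1 was the first, Hspd1 the second and Hspe1 the fifth, with Cct3 and Stip1 between. These 3 genes are those with a 3-unit heat shock element in their window, and Hspd1 and Hspe1 share 1 such element. Stip1 and Cct3, which rank among them, had no such match, and neither had the stress-induced Dnajb1. The search took exact units only, so this does not show that these genes lack an element. Hspa9, Cct4 and Hspa8 had no window and were not searched. The part of the element in these ratios was not tested.

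**Figure D3:**
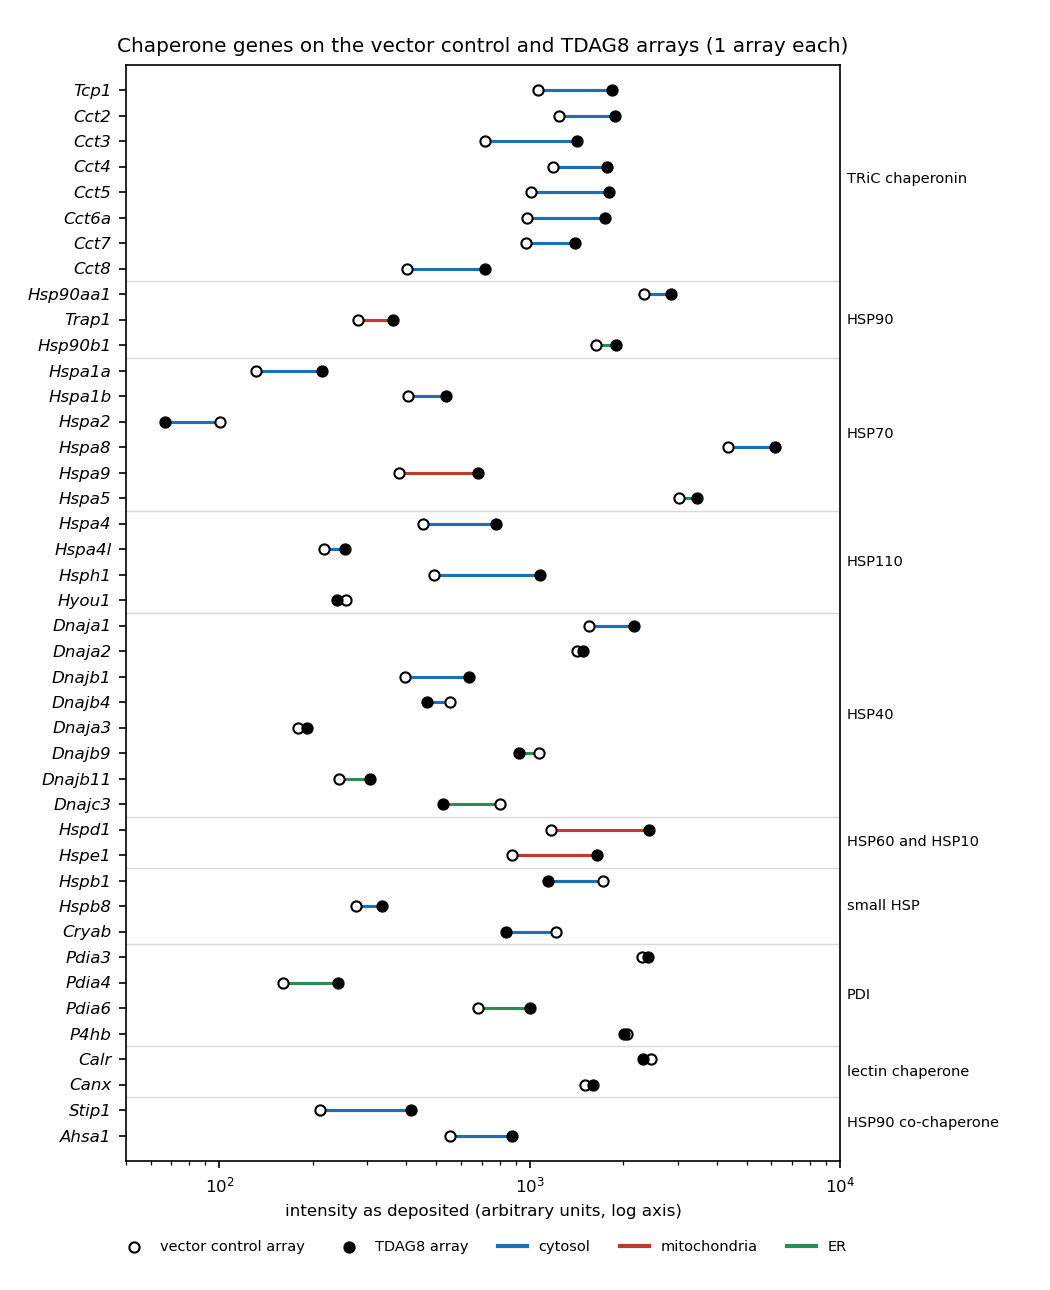
Intensity as deposited (log axis, arbitrary units) of the 42 chaperone genes measured, with 1 open circle for the vector control array, 1 filled circle for the TDAG8 array, line colour for the compartment, and genes grouped by family. All 8 TRiC genes, Hspd1, Hspe1 and Hsph1 have the filled circle to the right, and Hspb1, Cryab, Dnajc3 and Hspa2 have it to the left.

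The small heat shock proteins, which hold unfolded proteins without ATP, had ratios on both sides of 0. Hspb1 (HSP25) went from 1728 to 1142, a ratio of -0.54, with a second probe set at -0.29. Cryab, the alpha B crystallin abundant in heart and muscle, went from 1218 to 838, a ratio of -0.48, and from 1075 to 696 by a second probe set. Hspb8 went from 276 to 333, a ratio of 0.33, and all 3 of its probe sets were above 0. Of 6 further genes listed as small heat shock proteins 4 were measured, and 3 of these were below 0, against 50.1% of all genes. Hspb7, a protein of heart and muscle, went from 165 to 69.9 and was 2.27-fold lower, and Hspb2 was at -0.59 and Hspb6 at -0.58. The brightest, Hspb11, was the only one of the 4 above 0, at 0.11. Muscle markers were lower in the same pool. All 7 smooth muscle markers were below 0, against 50.1% of all genes, their sum going from 3832 to 2504. Of 9 cardiac muscle markers 8 were below 0, with sums of 5504 and 3373. Every muscle marker was above the floor on both arrays. The part of muscle RNA in the small heat shock protein values was not tested.

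The disulfide isomerases and lectin chaperones of the ER ranged from -0.03 to 0.64. Pdia4 went from 160 to 241 and Pdia6 from 681 to 1002, ratios of 0.64 and 0.62, and these disulfide isomerases were the ER genes that passed 1.5-fold. Pdia3, the isomerase that works with calnexin and calreticulin, went from 2301 to 2407, a ratio of 0.12, with a dim second probe set at -0.31. P4hb, the classic protein disulfide isomerase, went from 2051 to 2007, a ratio of 0.03. Calr (calreticulin), a lectin chaperone of the ER lumen, went from 2462 to 2318, a ratio of -0.03, with other probe sets at 0.20 and 0.33. Its membrane-bound relative Canx (calnexin) went from 1507 to 1596, a ratio of 0.14, with others at 0.24 and -0.11. The 6 ER genes with an ER stress element ranged from -0.55 to 0.62 with a median of 0.19, and the 5 ER genes whose window had none ranged from -0.16 to 0.64 with a median of 0.12. The ranges of these 2 sets of ER genes overlapped. Plasma cell markers, a source of ER chaperone RNA, were measured for 5 of 7 listed genes, with a median ratio of -0.21. Of the 5, 3 were below 0, against 50.1% of all genes. Among these 3, Derl3 was below the floor on the TDAG8 array and is also counted with the ER folding and disposal genes below. The summed intensity of the plasma cell markers went from 1280 to 1425. Most of it was Sdc1, which went from 897 to 1114 and is also made by epithelial cells. Tnfrsf17 and Irf4 were below the floor on both arrays. The part of the plasma cell markers in the ER values was not tested.

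**Figure D4:**
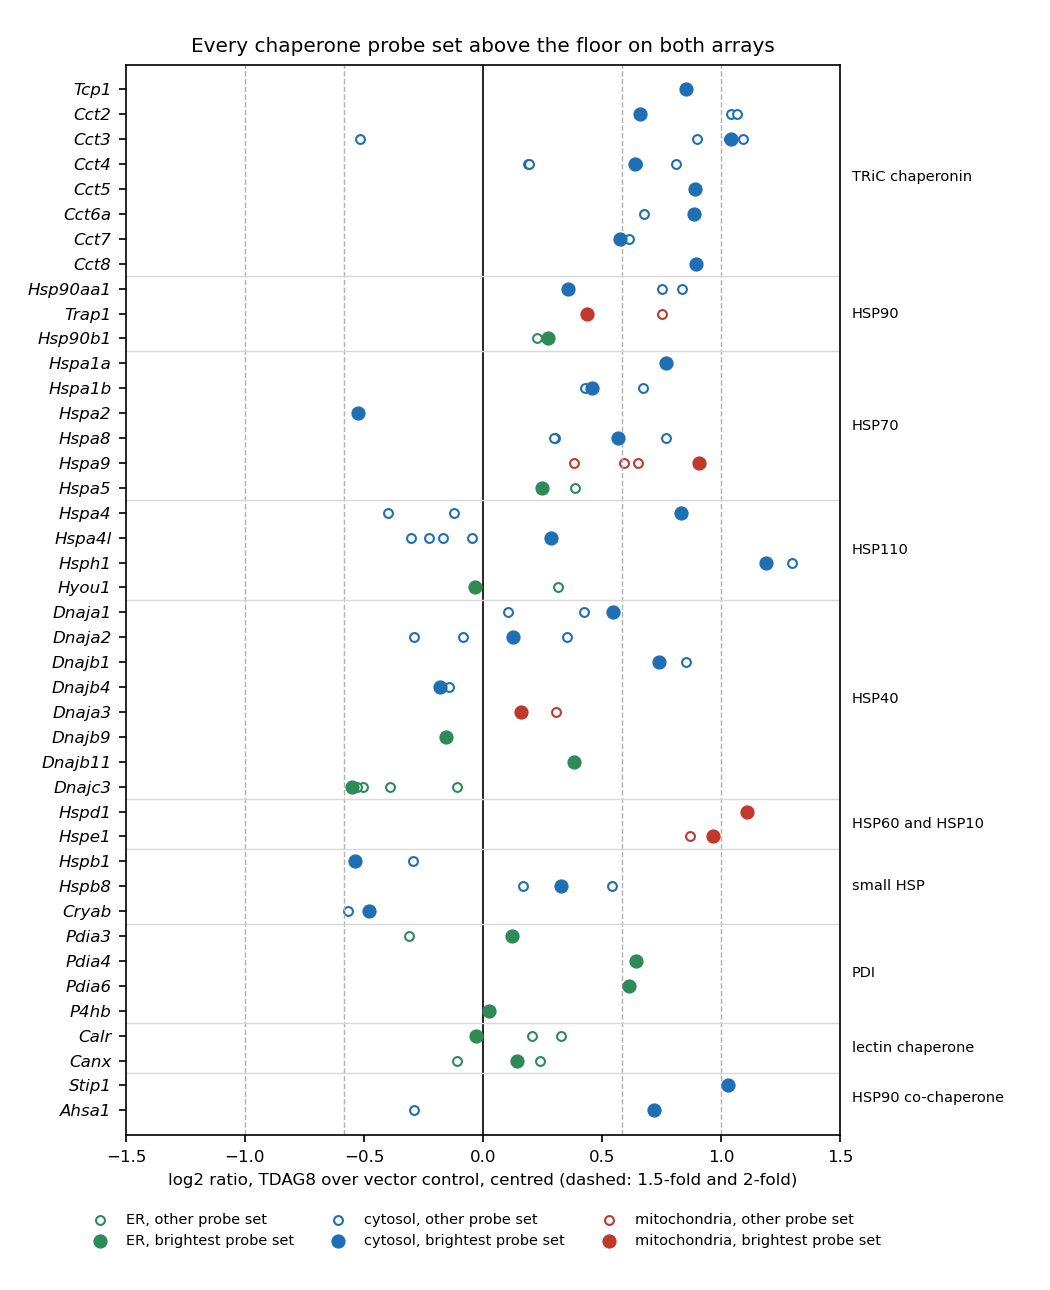
Log2 ratio of TDAG8 over vector control (horizontal axis) for every chaperone probe set above the floor on both arrays, 1 row for each gene, grouped by family and coloured by compartment. Filled points are the brightest probe set of a gene and open points the others, dashed lines mark 1.5-fold and 2-fold, and the probe sets of Hspa4, Hspa4l and Cct3 lie on both sides of 0.

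Agreement between probe sets varied by family. Of 30 chaperone genes for which both arrays read at least 2 probe sets above the floor 21 had all of them on one side of 0 and 9 had them on both sides. The median distance between the highest and the lowest probe set of a gene was 0.35 on the log2 scale, and the largest was 1.61, in Cct3. Over all 99 such chaperone probe sets 72 were above 0, against 49.7% of all single-gene probe sets, and 27 below, against 50.3%. At 1.5-fold, 37 were higher, against 13.2%, and 0 lower, against 11.3%. By probe sets, the cytosol had 28 of 63 at least 1.5-fold higher, the mitochondria 7 of 11 and the ER 2 of 25, where the share over all single-gene probe sets was 13.2%. When each gene's probe sets were averaged, those below the floor included, 12 genes rather than 18 were past 1.5-fold, with Cct7 and Trap1 gained and 8 genes lost. The genes lost were Cct3 at 0.51, Cct4 at 0.31, Cct8 at 0.44, Hspa9 at 0.51, Hspa4 at 0.08, Pdia4 at 0.31, Pdia6 at 0.30 and Ahsa1 at 0.23. A probe set below the floor on both arrays adds a fixed ratio near 0 to such a mean. For Cct8, Pdia4 and Pdia6 the only probe set besides the brightest was of this kind.

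Other folding genes of the same compartments were taken from a list of 93, of which 86 were measured. At 1.5-fold 15 of these, or 17.4%, were higher, close to the 14.4% of all genes, and 6 were lower, against 12.1% of all genes. The median was 0.16. Of the 6 prefoldin subunits, which deliver actin and tubulin to TRiC, 5 were above 0, against 49.9% of all genes. Their median was 0.52. Pfdn4 was at 0.74 and Pfdn6 at 0.70, and the brightest, Pfdn5, was at -0.08. Among other HSP90 co-chaperones the median of 10 genes was 0.13, with Chordc1 at 0.77, Fkbp4 at 0.58 and the kinase-specific Cdc37 at 0.15. The BAG exchange factors of HSP70 had a median of 0.18 over 6 genes, with Bag2 2.03-fold higher, Bag4 at 0.63 and Bag1 at 0.00. With the mean over probe sets Bag4 was at 0.27. Fkbp4 lay at -0.29 when only probe sets less open to shared sequence were used.

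The remaining lists covered J proteins, ER stress and mitochondrial quality control. Beside the counts above 0 in each list stands the share over all genes measured, 49.9%. Of 13 other J proteins 6 were above 0, with a median of -0.02. Dnajc2, a J protein that binds ribosomes, went from 176 to 339, or 2.01-fold, though at 0.50 with the mean over probe sets, Dnaja4 was at -0.80 and Dnajc8 at 0.01. Of 13 ER stress sensors and response genes 8 were above 0, with a median of 0.19. Herpud1, which acts in ER-associated degradation, went from 1455 to 898, a ratio of -0.64, Sdf2l1 was at 0.61, and Xbp1, the transcription factor of the IRE1 branch, was at -0.20. Of 22 ER folding and disposal genes 15 were above 0, with a median of 0.21. Calu, a calcium-binding protein of the secretory pathway, was 2.02-fold higher, Ero1a, an oxidase that recharges disulfide isomerases and is induced by low oxygen, was at 0.79, and Ppib was at 0.23. Of 12 mitochondrial genes 9 were above 0, with a median of 0.28, led by the protease genes Htra2 at 1.44, from 100.1 to 261, and Lonp1 at 0.74. Tomm70a, the brightest of these, was at 0.38.

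The direction of the compartment medians did not depend on the processing settings tried. Across the main setting and 8 alternatives the cytosolic median ranged from 0.44 to 0.69, the mitochondrial median from 0.61 to 0.93, the ER median from 0.04 to 0.30 and the TRiC median from 0.70 to 0.89. Of the 42 genes 37 kept 1 side of 0 under every alternative that gave a value, and Calr, Hspa4l, Hyou1, P4hb and Pdia3 did not.

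**Figure D5:**
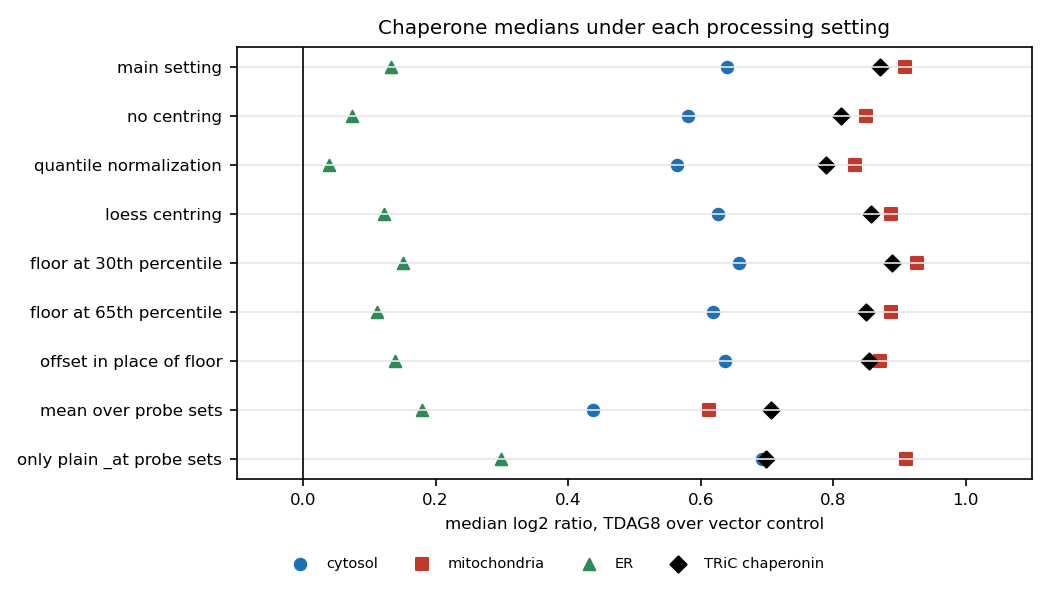
Median log2 ratio of TDAG8 over vector control (horizontal axis) for the cytosolic, mitochondrial and ER chaperone genes and for TRiC, under the main setting and 8 alternatives (rows). The ER median stays between 0.04 and 0.30, left of the other 3 in every row.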

How the data were processed

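The intensity values deposited by the authors give 1 value for each probe set on a linear scale. Per the labels' protocols, each array read pooled total RNA of 10 lungs, 2 µg of which was turned into biotin-labelled cRNA by the Affymetrix method. The sources used here name no image software, there were no detection calls, and 0 columns were left unmapped. Of 45101 probe sets 64 controls were dropped. The remaining 45037 comprised 34945 with 1 gene symbol in the platform annotation, 932 with several and 9160 with none, and 34741 of the first matched RefSeq gene identifiers.

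The floor was the 50th percentile of each array, 26.3 for the vector control and 24.3 for TDAG8, and lower values were raised to it. Each of 18193 genes was represented by its brightest probe set on average (mean log2 intensity), and 11949 were above the floor on at least 1 array. Log2 ratios were centred on the median of the 11044 above it on both, a shift of -0.06. No test was possible with 1 array per group, and precision is limited by the small number of arrays. All 45 members were to be named, with the 2 largest differences and the brightest gene of each list of other folding genes. The members and lists were chosen with earlier results of these data known. Values were computed with Python 3.11.15, pandas 2.3.3 and statsmodels 0.14.6, and the script was tested on simulated data. Motifs were searched in RefSeq windows of build GRCm38.p6. Among 8 alternatives, normalization was changed to quantile, to loess (span 0.3) or to none at all. The floor was moved to percentile 30 or 65 or replaced by an added offset. Genes were also read by the mean over probe sets, or by probe sets with a plain _at ending alone.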

Additional observations from a re-analysis of the deposited data

How the results depend on the processing

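No paired analysis was possible because each group had 1 array, and no replicate could be left out. A median counted as moved at a shift of 0.1 or more on the log2 scale, and a count when it differed by over 1.5 times. The count of chaperone genes at least 2-fold higher was 4, and it was 2 without centring, after quantile normalization and with only plain probe sets, which measured 31 of the 42 genes. The count at least 1.5-fold lower was 0, and it was 3 without centring and 2 after quantile normalization. With the mean over probe sets the medians were 0.34 for all members, 0.44 for the cytosol, 0.61 for the mitochondria and 0.71 for TRiC. In that setting 3 other folding genes rather than 6 were at least 1.5-fold lower. It averages in probe sets below the floor on both arrays, which hold a fixed ratio near 0. How much of these shifts they make up was not tested. With only plain probe sets the medians were 0.64 for all members, 0.30 for the ER and 0.70 for TRiC. The small heat shock protein median was -0.48 and turned to 0.35 there, where Hspb8 alone was left, and the lectin chaperone median turned to -0.04 after quantile normalization. Of 325 values of single members under an alternative 296 moved by less than 0.1, and none past 1.5-fold changed sign. The median of all genes lay between -0.06 and 0.02 under every alternative. Without centring 12.6% of all genes were 1.5-fold higher and 14.5% lower, against 14.4% and 12.1%.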
